A study of Homo sapiens with 6 samples.

Results

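The ATP-binding cassette (ABC) genes of A549 cells were examined, a family chosen by symbol alone: ABC, a subfamily letter from A to G, and a number. The annotation held 45 such genes, 11 ABCA, 9 ABCB, 12 ABCC, 4 ABCD, 1 ABCE, 3 ABCF and 5 ABCG, and 43 of them had a value among the 20824 genes of the deposited files. One further gene of this form was not analysed here, and family members with other kinds of symbol were kept as a separate list. One group was A549 cells, a human lung adenocarcinoma line, with an shRNA against C19orf12 (C19orf12 knockdown, 3 libraries), and it was set against A549 cells with a scrambled shRNA, labelled as the wild-type control (scramble, 3 libraries). Both groups carried an shRNA, knockdown titles carry a single construct number, and nothing in the labels says that replicates came from separate cultures, so a p-value reflects only how far these libraries spread, which may be technical.

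ABC proteins bind and hydrolyse ATP, and most of them use it to carry a substrate across a membrane. Subfamily A moves lipids, B holds the drug exporter P-glycoprotein and transporters of the mitochondrion, C holds the multidrug resistance proteins and the sulphonylurea receptors, D serves peroxisomes and lysosomes, and G exports sterols and drugs. ABCE and ABCF proteins span no membrane and act on ribosomes instead. C19orf12 encodes a membrane protein of mitochondria and the endoplasmic reticulum, and its mutation causes a neurodegenerative disease with brain iron accumulation. A549 cells carry a mutation of KEAP1 that leaves the antioxidant factor NRF2 active, and several ABCC genes and ABCG2 are known NRF2 targets.

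Total estimated counts per library lay between 10229890 and 10647587. C19orf12, the targeted gene on chromosome 19, measured 24.2, 26.4 and 25.2 CPM (estimated counts scaled to library size with TMM factors) in the knockdown libraries, against 42.5, 41.1 and 63.3 CPM in scramble replicates 1, 2 and 3, a log2 fold change of -0.95 (SE 0.20, edgeR adjusted p = 0.015). Scramble replicate 3 stood apart: across genes its log2 CPM correlated with scramble replicates 1 and 2 at 0.952 and 0.953, while these correlated with each other at 0.991 and with the knockdown libraries at 0.958 to 0.960. Results are therefore given with and without it, as the choice of this family asked. Of 8 A549 and lung epithelial markers 7 reached at least 100 CPM in every library, and 2 rose, the keratins KRT8 (log2 fold change 1.79, edgeR adjusted p = 0.000246) and KRT18 (1.31, edgeR adjusted p = 0.00135), with 7 of 8 called higher without scramble replicate 3. Of 15 markers of other cell types 8 of the 14 with a value stayed under 1 CPM in every library and 1 further marker was listed in no library, and their summed level was 208 to 224 CPM in the knockdown libraries and 213 to 294 CPM in the scramble libraries. Of the 6 tested, 2 were called lower, RBFOX3 (-1.32) and COL1A1 (-0.75), a neuronal and a fibroblast marker. Other markers of the same cell types lay on both sides. The neuronal TUBB3 was at 0.33 (edgeR adjusted p = 0.29) and, without scramble replicate 3, at 0.51 (adjusted p = 1.72e-07). The other fibroblast markers were too low to be tested. LUM averaged 0.499 CPM in the knockdown libraries and was listed in no scramble library. COL3A1 averaged 0.166 CPM in the knockdown and 0.0619 CPM in the scramble libraries. DCN was at 0 CPM in the knockdown libraries and at 0.186, 0 and 0 CPM in scramble replicates 1, 2 and 3. Without scramble replicate 3, 2 of the 6 were called higher and 2 lower. Over all genes tested, 5.89% were called higher and 5.64% lower with all 6 libraries, and 25.7% and 23.8% without scramble replicate 3. The part of the marker shifts in the results below was not tested.

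With all 6 libraries 8 ABC genes changed. Higher in the knockdown libraries were ABCD3, a peroxisomal importer of long-chain and branched acyl-CoA, ABCA5, a transporter of late endosomes and lysosomes, ABCC6, known for its loss in the calcification disease pseudoxanthoma elasticum, and ABCA8, a lipid transporter that was barely detected. Lower were ABCC3, an exporter of glucuronide and bile acid conjugates, ABCG2, the breast cancer resistance protein, ABCG1, which exports cholesterol to lipoproteins, and ABCC8, the sulphonylurea receptor of ATP-sensitive potassium channels. Of 32 ABC genes that passed the filter on low counts, 4 were called higher and 4 lower (adjusted p under 0.05), or 25% of them, where 11.5% of all 14812 genes tested were called, 5.89% higher and 5.64% lower. One of the 8, ABCA8, passed the filter only through the libraries in which it was high, so that it had to differ to be tested at all. In bulk RNA, fewer cells that express a gene and less RNA per cell cannot be told apart. Without scramble replicate 3, 16 of 32 were called, 8 higher and 8 lower, or 50%, and all 8 genes above were among them in the same direction. That share stood beside 49.5% of all 15029 genes tested, so that the larger count is near the background. Without scramble replicate 1 and without replicate 2, 6 of 32 were called in each case, where 8.95% and 8.35% of all genes were. With no filter on low counts 8 of 43 were called, where 8.31% of all genes were. The median log2 fold change of the 32 genes was 0.11, beside 0.02 over all genes tested, and leaving out scramble replicate 3 gave 0.01, beside 0.00 over all genes. The groups did not overlap for 16 of the 32, 9 with the knockdown libraries above and 7 with them below, where 37% of all genes tested showed no overlap.

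**Figure D1:**
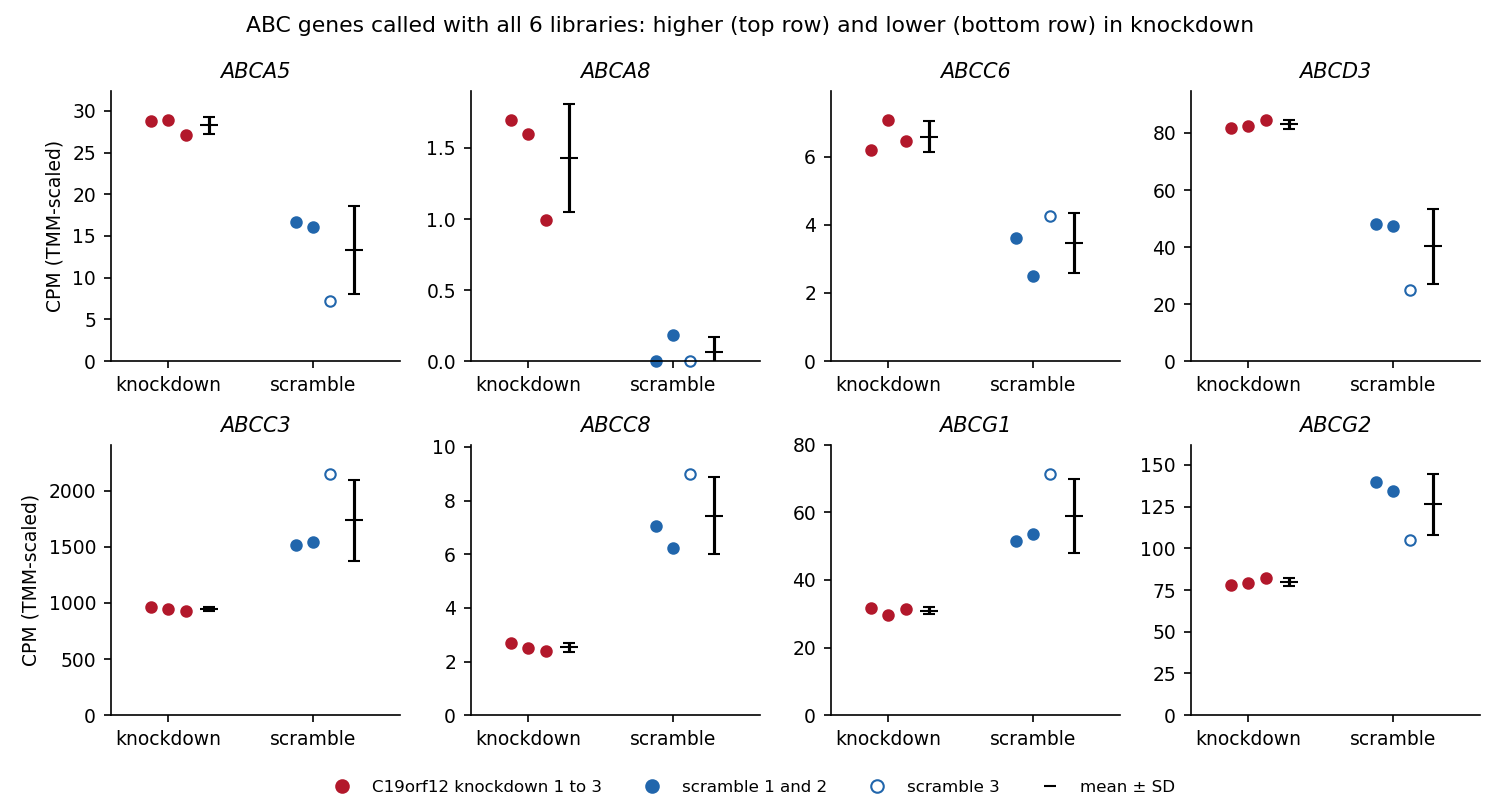
Level in each library (points, TMM-scaled CPM, linear axes from 0) of the 8 ABC genes called with all 6 libraries, with the mean and SD of each group; the open point is scramble replicate 3. In each panel the knockdown libraries lie on 1 side of the scramble libraries, and scramble replicate 3 lies farther from the knockdown libraries than the other scramble libraries except in ABCG2 and ABCC6 and, tied at 0 with scramble replicate 1, ABCA8.

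ABCD3, on chromosome 1, was at 81.7, 82.6 and 84.7 CPM in the knockdown libraries, against 48.2, 47.5 and 24.9 CPM in scramble replicates 1, 2 and 3. The groups did not overlap, and scramble replicate 3 held the lowest value. The log2 fold change was 1.05 (SE 0.24, edgeR adjusted p = 0.0232), or a 2.06-fold level, and 0.79 (SE 0.06, adjusted p = 1.34e-10), or 1.73-fold, without that library. ABCA5, on chromosome 17, was at 28.8, 28.96 and 27.1 CPM in the knockdown libraries, against 16.6, 16.1 and 7.26 CPM in the scramble libraries, again with replicate 3 lowest. Its fit gave a log2 fold change of 1.09 (SE 0.28, edgeR adjusted p = 0.0355), against 0.79 (SE 0.09, adjusted p = 1.71e-07) with that library left out. Both genes thus gave the same fold against the 2 scramble libraries that resemble each other. Neither call held when a knockdown library was left out: without knockdown replicates 1, 2 and 3 the adjusted p was 0.0846, 0.0927 and 0.0968 for ABCD3 and 0.116, 0.122 and 0.107 for ABCA5, with log2 fold changes of at least 1.03 and 1.06.

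ABCC6 and ABCA8 were called on few counts. ABCC6, on chromosome 16, was at 6.20, 7.09 and 6.46 CPM in the knockdown libraries, against 3.62, 2.51 and 4.26 CPM in the scramble libraries, with no overlap (log2 fold change 0.93, SE 0.23, edgeR adjusted p = 0.0305, and 1.1, adjusted p = 0.000143, without scramble replicate 3). The call was lost without knockdown replicates 1, 2 and 3 (adjusted p = 0.0951, 0.139 and 0.109) and without scramble replicates 1 and 2 (0.0743 and 0.0969). The genome holds near-identical partial copies of ABCC6, the pseudogenes ABCC6P1 and ABCC6P2, to which at most 0.743 CPM were assigned in any library, so that its count is uncertain. ABCA8, on chromosome 17, had 17, 16 and 10 estimated counts in the knockdown libraries, against 0, 2 and 0 in the scramble libraries. Scaled by library totals, the summed ratio was 21.9 (95% exact interval 5.7 to 186, counting error only). ABCA8 passed the filter through its knockdown libraries alone and so had to differ (edgeR adjusted p = 0.00491, and 0.000185 without scramble replicate 3). Apart from it and ABCC6, 2 of 30 tested genes were called higher and 4 lower, where 5.89% and 5.64% of all genes tested were.

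ABCC3, on chromosome 17, was the most abundant ABC gene and the one whose level fell by the most CPM. It was at 968, 943 and 929.8 CPM in the knockdown libraries, against 1516, 1539 and 2154 CPM in scramble replicates 1, 2 and 3. All 3 knockdown libraries were far below the lowest scramble library, and scramble replicate 3 was the highest. The log2 fold change was -0.87 (SE 0.16, edgeR adjusted p = 0.0087), which left 54.5% of the scramble level, and it was -0.69 (SE 0.03, adjusted p = 4.15e-15), or 62.0%, without scramble replicate 3. Without knockdown replicates 1, 2 and 3 the adjusted p rose to 0.0522, 0.0581 and 0.0617, at log2 fold changes of -0.89, -0.88 and -0.86.

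The ABCG genes with a measurable level both fell. ABCG1, on chromosome 21, was at 31.8, 29.7 and 31.3 CPM in the knockdown libraries, against 51.6, 53.6 and 71.5 CPM in the scramble libraries (log2 fold change -0.93, SE 0.18, edgeR adjusted p = 0.0094; -0.77, adjusted p = 3.31e-09, without scramble replicate 3). ABCG2, on chromosome 4, was at 77.7, 79.3 and 82.1 CPM in the knockdown libraries, against 139.6, 134.2 and 105.3 CPM in the scramble libraries (log2 fold change -0.66, SE 0.16, edgeR adjusted p = 0.0274; -0.78, adjusted p = 1.03e-11, without scramble replicate 3). The groups did not overlap for either gene, but scramble replicate 3 was the highest scramble library for ABCG1 and the lowest for ABCG2, so that leaving it out brought ABCG1 closer to 0 and moved ABCG2 away from it. Both calls were lost without knockdown replicates 1, 2 and 3 (adjusted p = 0.0609, 0.0734 and 0.0669 for ABCG1 and 0.16, 0.151 and 0.138 for ABCG2). That of ABCG2 was also lost without scramble replicate 1 (0.0905) or 2 (0.0863). Of the other members of this subfamily, which include the intestinal and biliary sterol exporters ABCG5 and ABCG8, ABCG4 reached 0.775 CPM at most, ABCG5 was at 0.1 CPM or less and ABCG8 was listed in no library, which allows up to 3 counts in each.

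ABCC8, on chromosome 11, was at 2.70, 2.50 and 2.38 CPM in the knockdown libraries, against 7.06, 6.22 and 9.01 CPM in the scramble libraries, a wide gap for a gene with 24 to 27 counts per knockdown library. The log2 fold change was -1.55 (SE 0.22, edgeR adjusted p = 0.00225) and -1.39 (adjusted p = 8.46e-06) without scramble replicate 3. Leaving aside ABCA8, which had to differ to be tested, ABCC8 was the only one of the 8 genes that stayed called under each of the 10 alternatives, with adjusted p-values of 8.46e-06 to 0.0181. Without knockdown replicate 1, 2 or 3 it was likewise the only other ABC gene called, where 5.09%, 4.93% and 4.85% of all genes were called. ABCC9, the other sulphonylurea receptor, was at 25.4, 33.0 and 30.7 CPM in the knockdown libraries, against 33.0, 29.8 and 15.98 CPM in the scramble libraries, and the groups overlapped (log2 fold change 0.18, edgeR adjusted p = 0.738). KCNJ11, which forms the channel pore that these receptors regulate, averaged 5.31 ± 1.88 CPM in the knockdown and 7.32 ± 2.30 CPM in the scramble libraries (SD, n = 3 each; adjusted p = 0.409), the 1 of 2 pore genes that was tested.

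The sequences upstream of the annotated start are shown for ABCD3 and ABCA5, which rose by a like amount, and for ABCG2, which fell, as the abundant changed genes that the RefSeq promoter table (GRCh38.p14) held. ABCA8, ABCC1, ABCC3, ABCC8 and ABCG1 had no entry. Each is the 250 bases before the start, 5′ to 3′ on the strand of the gene, with the GC box GGGCGG or its reverse complement in capitals.
ABCD3: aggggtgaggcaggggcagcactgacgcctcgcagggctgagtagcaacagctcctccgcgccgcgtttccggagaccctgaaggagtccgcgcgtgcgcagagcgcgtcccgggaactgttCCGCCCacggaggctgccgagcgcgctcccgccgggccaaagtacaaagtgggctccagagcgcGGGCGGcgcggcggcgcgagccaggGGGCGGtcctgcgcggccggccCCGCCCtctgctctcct
ABCA5: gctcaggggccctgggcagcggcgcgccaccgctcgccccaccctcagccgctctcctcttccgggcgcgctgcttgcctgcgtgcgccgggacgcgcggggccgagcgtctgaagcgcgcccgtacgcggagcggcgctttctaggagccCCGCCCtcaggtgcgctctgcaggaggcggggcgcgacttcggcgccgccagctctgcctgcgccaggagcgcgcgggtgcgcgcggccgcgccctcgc
ABCG2: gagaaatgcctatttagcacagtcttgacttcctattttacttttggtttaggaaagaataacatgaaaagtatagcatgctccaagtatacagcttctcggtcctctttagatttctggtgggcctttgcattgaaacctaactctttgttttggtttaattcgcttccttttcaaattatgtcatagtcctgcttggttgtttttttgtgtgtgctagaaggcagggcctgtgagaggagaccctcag
The windows were chr1:94418139-94418388 (plus strand), chr17:69327134-69327383 (minus strand) and chr4:88231627-88231876 (minus strand). ABCD3 and ABCA5 had GC-rich windows, 74.4% and 79.2% G and C, with 4 GC boxes and 1, while that of ABCG2 was 40.0% G and C and held none. ABCC6, which rose on few counts, also had an entry. Its window, not shown, was 70.8% G and C and held no GC box, so the changed genes did not divide by this motif. A GC box was found in 42.6% of the 35116 promoters of this length and in 17 of 34 of the ABC genes with an entry. On either strand, none of the 3 windows shown held the NRF2 element core TGACNNNGC (10.9% of all promoters, 5 of 34 ABC genes), CCAAT (32%, 6 of 34), TATAAA (10.7%, 5 of 34) or CACGTG (6.34%, 4 of 34). A match is a description of letters and no evidence of binding, and these windows may not hold the start that A549 cells use.

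**Figure D2:**
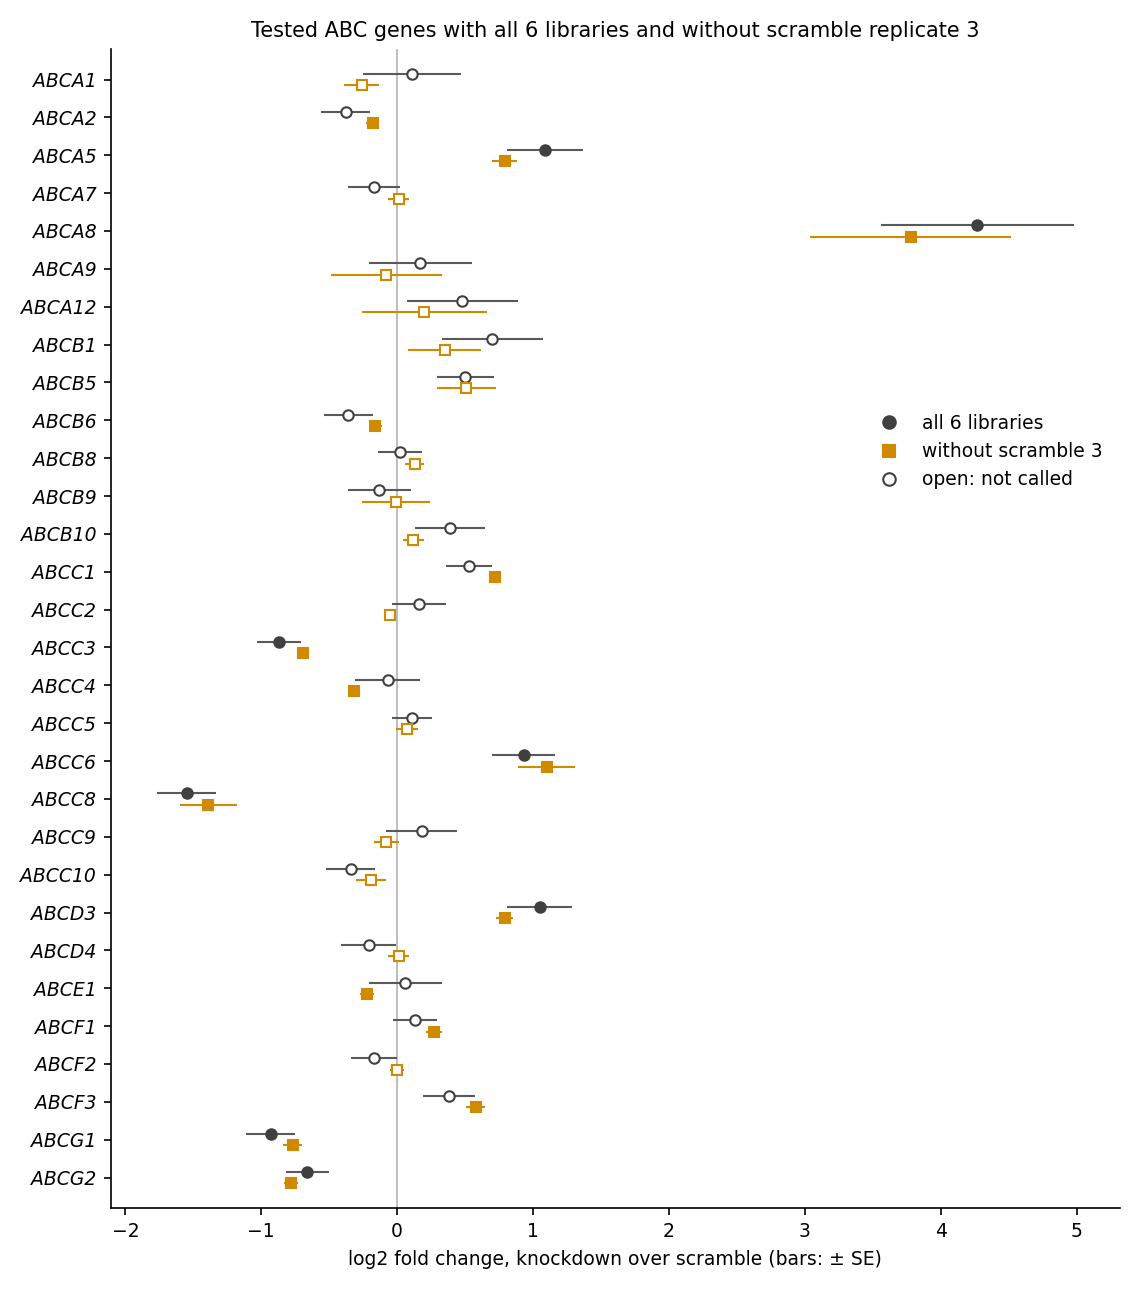
Log2 fold change of knockdown over scramble with its SE for 30 of the tested ABC genes, with all 6 libraries (circles) and without scramble replicate 3 (squares); filled symbols were called. The 8 filled circles keep their side of 0 in the squares, and bars are shorter without scramble replicate 3 for most genes, though not for ABCA8, ABCA9, ABCA12, ABCB5 and ABCB9.

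Among the multidrug resistance proteins, which export glutathione, glucuronide and sulphate conjugates, ABCC1 and ABCC3 lay on opposite sides. ABCC1, next to ABCC6 on chromosome 16, was at 658, 622 and 643 CPM in the knockdown libraries, against 387, 394 and 555 CPM in scramble replicates 1, 2 and 3. The groups did not overlap, and scramble replicate 3 lay nearest to the knockdown libraries, but the gene was not called (log2 fold change 0.53, SE 0.17, edgeR adjusted p = 0.0818). Without scramble replicate 3 it was called at 0.72 (SE 0.03, adjusted p = 8.37e-14), and over the 10 alternatives its adjusted p ran from 8.37e-14 to 0.273. ABCC2, the apical exporter of bilirubin conjugates, was at 774, 749.9 and 790.3 CPM in the knockdown libraries, against 786, 813 and 470.5 CPM in the scramble libraries, so the groups overlapped (log2 fold change 0.16, edgeR adjusted p = 0.69, and -0.05, adjusted p = 0.186, without scramble replicate 3). ABCC4, which exports cyclic nucleotides and prostaglandins, was at 129, 128 and 132 CPM in the knockdown libraries, against 159, 164 and 84.2 CPM in the scramble libraries. It lay at -0.07 with all 6 libraries and at -0.32 (edgeR adjusted p = 2.49e-06) without scramble replicate 3. ABCC5, an exporter of cyclic nucleotides (log2 fold change 0.11), and ABCC10 (-0.34) were not called in either fit. ABCC11, ABCC12 and the transcribed pseudogene ABCC13 did not pass the filter.

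Levels of different genes were compared by FPKM as deposited, which is scaled to transcript length. ABCC3, ABCC2 and ABCC1 held the 3 highest levels in both groups, in that order. Together they held 57.9%, 57.1% and 57.2% of the summed FPKM of all ABC genes in the knockdown libraries, against 60.5%, 60.9% and 63.6% in the scramble libraries. The share of ABCC3 alone was 25.3%, 25.2% and 24.4% in the knockdown libraries, against 35.7%, 35.8% and 45.1% in the scramble libraries. The summed FPKM was 719, 704 and 718 in the knockdown libraries, against 848, 865 and 886 in the scramble libraries. ABCC3 averaged 178 ± 3.51 FPKM in the knockdown and 338 ± 53.9 FPKM in the scramble libraries, ABCC2 137 ± 3.89 FPKM in the knockdown and 129 ± 40.0 FPKM in the scramble libraries, and ABCC1 94.5 ± 2.75 FPKM in the knockdown and 67.9 ± 11.3 FPKM in the scramble libraries (SD, n = 3 each). In the knockdown libraries the ranges of these genes and of ABCB6 after them were separate. In the scramble libraries those of ABCC1 and ABCB6 overlapped, as did each neighbouring pair from there to ABCG1 in the order of scramble means. ABCD3 ranked 7th in the knockdown and 11th in the scramble libraries, ABCG2 10th in the knockdown and 7th in the scramble libraries, and ABCG1 16th in the knockdown and 9th in the scramble libraries. In all, 27 genes averaged at least 1 FPKM over the 6 libraries and 16 at least 10 FPKM.

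**Figure D3:**
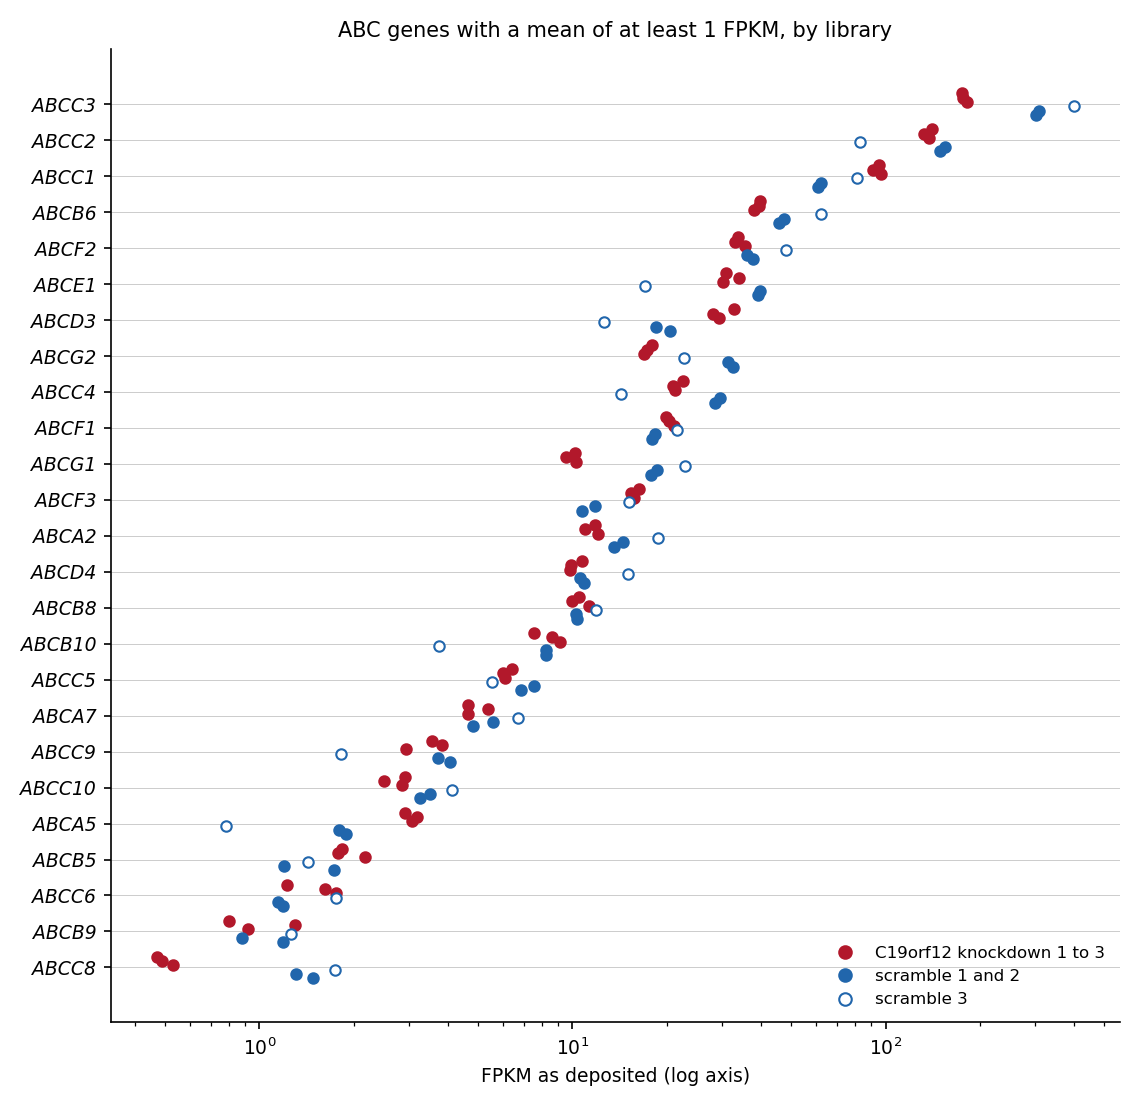
FPKM as deposited (log axis) in each library for 25 of the ABC genes with a mean of at least 1 FPKM, ordered by that mean; knockdown points lie above scramble points in each line, and the open point is scramble replicate 3. ABCC3, ABCC2 and ABCC1 lead, and the open points lie to the left for some genes and to the right for others.

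Of the 4 ABCB genes of the mitochondrion 0 were called by edgeR in the fit of all 6 libraries and 0 by DESeq2, and 1 had an unadjusted p under 0.05. Over all genes tested, 11.5% were called by edgeR and 12.8% by DESeq2, and 3763 of 14812 had an unadjusted p under 0.05. Counts over 4 genes cannot be told from these shares. ABCB6, which carries porphyrins and was the most abundant of its subfamily, was at 118, 123 and 123 CPM in the knockdown libraries, against 133, 137 and 195 CPM in the scramble libraries. It did not overlap between groups (log2 fold change -0.36, edgeR adjusted p = 0.258, and -0.16, adjusted p = 0.00607, without scramble replicate 3). ABCB8 (0.02) and ABCB10 (0.39), which acts in early haem synthesis, were called in neither fit. ABCD2 was listed in no library, and ABCD4, which works in lysosomal cobalamin export, was not called (-0.21, edgeR adjusted p = 0.579).

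Partner genes of these transporters were called in both directions. Of 17 tested genes for peroxisomal entry, peroxisomal oxidation and cobalamin handling, 2 rose and 1 fell (median log2 fold change 0.34). The very-long-chain acyl-CoA synthetase SLC27A2 (0.71) rose, at 60.3 ± 1.09 CPM in the knockdown and 37.0 ± 2.39 CPM in the scramble libraries (SD, n = 3 each; edgeR adjusted p = 0.0146), while the acyl-CoA synthetase ACSL1 (-0.67) fell. Of 27 genes of haem synthesis and iron-sulphur cluster assembly 2 rose, the ferredoxin FDX1 (0.83) and the coproporphyrinogen oxidase CPOX (0.62), and 1 fell, the mitochondrial iron importer SLC25A37 (-0.52), with a median of 0.01. Over all 14812 genes tested with all 6 libraries, 5.89% rose and 5.64% fell. Without scramble replicate 3, 8 of the 17 rose and 3 fell, and 15 of the 27 rose and 4 fell, where 25.7% and 23.8% of all genes rose and fell.

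Among lipid transporters of subfamily A, ABCA5 and ABCA8 were the only ones of 7 tested that were called with all 6 libraries by edgeR. Over all genes tested 11.5% were called, and ABCA8 had to differ to be tested at all. ABCA2, the most abundant gene of the subfamily, was at 102, 92.9 and 99.5 CPM in the knockdown libraries, against 108, 114 and 160.3 CPM in the scramble libraries (log2 fold change -0.38, edgeR adjusted p = 0.239, and -0.18, adjusted p = 0.00717, without scramble replicate 3). ABCA1, which loads cholesterol onto apolipoprotein A-I, was at 8.70, 8.89 and 9.73 CPM in the knockdown libraries, against 10.8, 11.05 and 3.49 CPM in the scramble libraries. Its groups overlapped, and its log2 fold change was 0.11 (edgeR adjusted p = 0.894) with all 6 libraries and -0.26 (adjusted p = 0.114) without scramble replicate 3. ABCA7, ABCA9 and ABCA12 were not called in either fit. ABCA8 lies in a cluster on chromosome 17 with ABCA5, ABCA6, ABCA9 and ABCA10. Of these ABCA10, which did not pass the filter, was at 1.00, 0.899 and 0.596 CPM in the knockdown libraries and at 0.557, 0.186 and 0.194 CPM in the scramble libraries, and counts of cluster members this low are uncertain where the copies resemble each other. ABCA4, ABCA6 and ABCA13 stayed under 1 CPM. Of 14 tested genes that sense sterols or take part in their export and uptake, 1 rose, where 5.89% of all genes did. The sterol receptors NR1H2 (0.13) and NR1H3 (0.24), which activate ABCA1 and ABCG1, were not called with all 6 libraries. Without scramble replicate 3 both were called higher, NR1H2 at 0.34 (edgeR adjusted p = 7.48e-05) and NR1H3 at 0.46 (edgeR adjusted p = 0.0134), among 9 of the 14 that rose, where 25.7% of all genes rose.

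Drug exporters of subfamily B were low. ABCB1, which encodes P-glycoprotein, was at 2.60, 3.30 and 2.98 CPM in the knockdown libraries, against 2.32, 2.32 and 0.775 CPM in the scramble libraries. The groups did not overlap, yet the gene was not called (log2 fold change 0.70, edgeR adjusted p = 0.273, and 0.35, adjusted p = 0.303, without scramble replicate 3). ABCB5 was at 5.50, 4.79 and 4.77 CPM in the knockdown libraries, against 4.09, 2.97 and 3.58 CPM in the scramble libraries (0.50, edgeR adjusted p = 0.174, and 0.51, adjusted p = 0.0588, without scramble replicate 3). The lysosomal peptide transporter ABCB9 lay at -0.13 and, without scramble replicate 3, at -0.01, and ABCB4 and ABCB11, canalicular exporters of phospholipid and bile salts, reached 0.371 and 0.1 CPM at most. Of the 3 ABC proteins with other symbols 2 were tested and 0 were called, by edgeR and by DESeq2 alike, and 0 had an unadjusted p under 0.05, while 1 fell without scramble replicate 3. Over all genes tested, 11.5% were called by edgeR with all 6 libraries, and 23.8% fell without scramble replicate 3. Counts over 2 genes cannot be told from these shares.

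Genes that make or move the substrates of drug exporters changed in both directions. Of 20 tested genes of glutathione, glucuronide and sulphate conjugation 2 rose, the microsomal glutathione transferases MGST1 (0.64) and MGST3 (0.72). Of 13 tested carriers of organic ions 3 rose and 2 fell, among them the carnitine carrier SLC22A5 (0.73) and SLC22A4 (0.86), which rose, and SLC47A1 (-0.72) and SLCO3A1 (-0.66), which fell. Of 7 xenobiotic receptors and sensors 1 rose, the bile acid receptor NR1H4, at 4.25 ± 0.796 CPM in the knockdown and 1.84 ± 0.446 CPM in the scramble libraries (SD, n = 3 each; edgeR adjusted p = 0.0191). With all 6 libraries 5.89% of all genes rose and 5.64% fell. Without scramble replicate 3 the counts were 10 higher and 3 lower of 21, 5 and 4 of 13, and 2 and 1 of 7, where 25.7% of all genes rose and 23.8% fell.

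Of the 4 ABC genes of translation 0 were called in the fit of all 6 libraries, by edgeR and by DESeq2 alike, and 0 had an unadjusted p under 0.05. Over all genes tested, 11.5% were called by edgeR and 12.8% by DESeq2. Without scramble replicate 3, 2 of the 4 were called higher and 1 lower, where 49.5% of all genes were called. Counts over 4 genes cannot be told from these shares. ABCF3 was at 42.4, 41.5 and 43.9 CPM in the knockdown libraries, against 27.1, 29.7 and 41.2 CPM in the scramble libraries, with no overlap (log2 fold change 0.38, edgeR adjusted p = 0.246, and 0.58, adjusted p = 8.44e-07, without scramble replicate 3). ABCE1, an iron-sulphur protein that splits ribosomes after termination, was at 131, 148 and 133 CPM in the knockdown libraries, against 159, 160.2 and 74.6 CPM in the scramble libraries. Its log2 fold change was 0.06 (edgeR adjusted p = 0.921) in the fit of all 6 libraries and -0.22 (adjusted p = 0.000845) when scramble replicate 3 was left out. ABCF2 was at 111, 109.7 and 114 CPM in the knockdown libraries, against 114, 109 and 153 CPM in the scramble libraries, without a call in either fit. ABCF1, which binds the initiation factor eIF2, lay at 0.13 and, without scramble replicate 3, at 0.27 (adjusted p = 0.000557). Of 18 partner genes in ribosome recycling and initiation 0 were called by edgeR or DESeq2 in the fit of all 6 libraries, 2 had an unadjusted p under 0.05, as 3763 of all 14812 genes did, and 6 rose and 4 fell without scramble replicate 3, where 49.5% of all genes were called.

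The place of scramble replicate 3 among the scramble libraries followed the GC content of the ABC transcripts. All 32 tested genes had a GC value from GENCODE transcripts. In the 16 with 34.7% to 49.3% GC, 15 were lower in scramble replicate 3 than the mean of scramble replicates 1 and 2, with a median difference of -0.94 on the log2 scale and a range of -1.62 to 0.02. In the 16 with 51.5% to 65.8% GC, 0 were lower, with a median of 0.47 and a range of 0.31 to 0.59. Across the 32 genes the correlation of this difference with GC content was 0.83 (Pearson), beside 0.69 over all 14231 genes with a GC value; genes share their libraries and are not independent. The difference between the mean of the knockdown libraries and that of scramble replicates 1 and 2 correlated with GC content at -0.23. Its median was 0.10 in the genes of low GC content and 0.01 in those of high GC. Of the changed genes, ABCA5, ABCA8, ABCD3 and ABCG2 lay in the low range and ABCC3, ABCC6, ABCC8 and ABCG1 in the high one. Of the 32 genes 8 had opposite signs in the 2 fits, and of these ABCE1 alone was called in either.

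**Figure D4:**
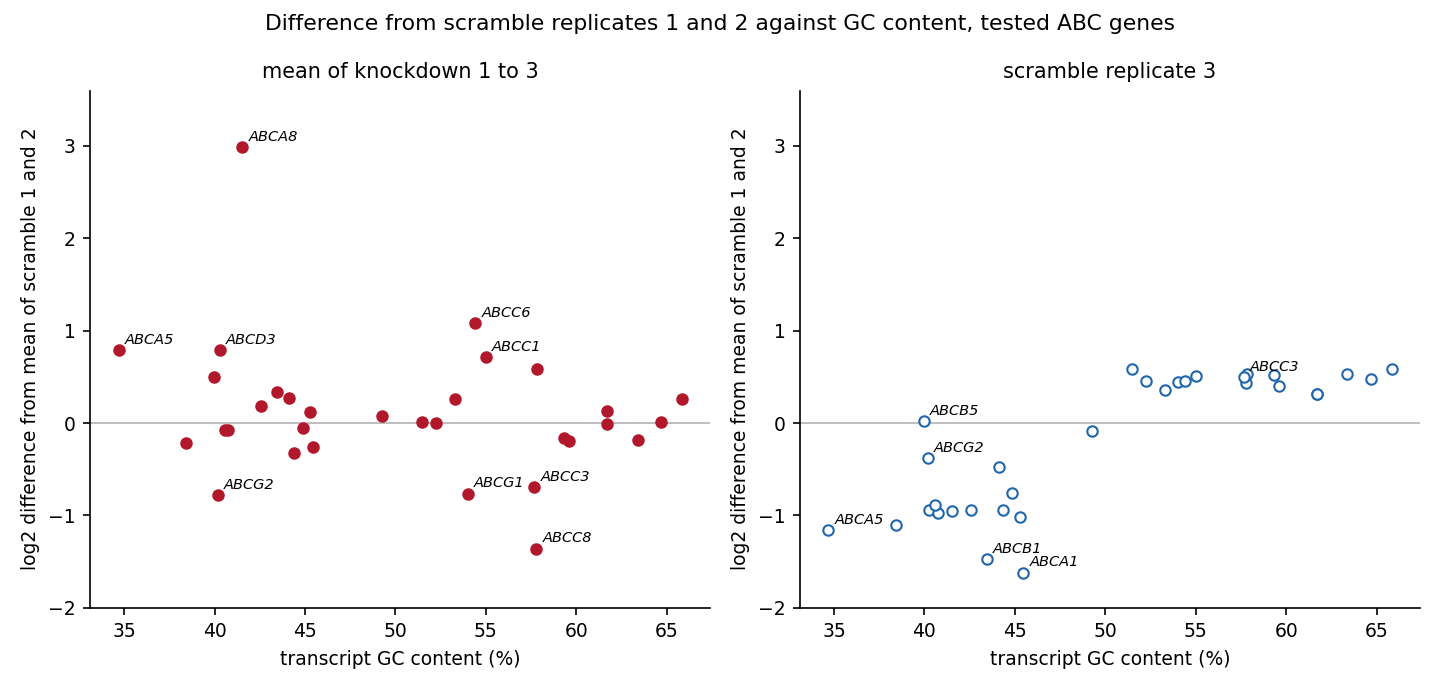
Log2 difference relative to averaged scramble replicates 1 and 2 (CPM with 0.1 added) against transcript GC content for the 32 tested ABC genes, for the mean of the knockdown libraries (left) and for scramble replicate 3 (right). The right panel steps from a median of -0.94 below 50% GC to 0.47 above it, while the left one has points on both sides of 0 along the axis.

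The deposited mean transcript length, which follows the isoforms that the estimated counts were assigned to, differed between groups for ABCC6. It was 3413, 4259 and 5125 bases in the knockdown libraries, against 3159, 2252 and 2340 bases in the scramble libraries, 1.65 times as long on average. Its FPKM was 1.76, 1.62 and 1.23 in the knockdown libraries, against 1.19, 1.15 and 1.76 in scramble replicates 1, 2 and 3, with means of 1.54 ± 0.275 in the knockdown and 1.37 ± 0.341 in the scramble libraries (SD, n = 3 each), where the CPM ratio was 1.90. The groups overlapped by FPKM through scramble replicate 3 alone, and without it every knockdown library lay above the scramble libraries. The length of ABCC5 was 4209, 4168 and 4076 bases in the knockdown libraries, against 3658, 3587 and 4073 bases in the scramble libraries. These were the 2 of 21 tested ABC genes with several transcripts that were longer by at least 10% without overlap, where 0.533% of 8067 such genes were, and 0 were shorter (0.347% of such genes). For ABCC5 the groups were all but tied, at 4076 bases in knockdown replicate 3 and 4073 in scramble replicate 3, and ABCC6 rests on few counts. With 3 libraries in each group an exact permutation test could not go below 0.1, so no test is given. For ABCD3 the groups overlapped in length, with 2701, 2858 and 2522 bases in the knockdown libraries, against 2449, 2694 and 1917 bases in the scramble libraries, and the FPKM ratio was 1.75, beside 2.06 by CPM.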

How the data were processed

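Polyadenylated RNA of 6 A549 libraries was sequenced, per the labels. The authors deposited, per library, RSEM expected counts per gene, FPKM and mean transcript lengths (bases), per the file headers. BWA, Bowtie2 and RSEM were named with build hg19 in the submitters' processing notes; what each did, and its version, is not given in these sources. A gene missing from a file was taken as 0 counts. Of 20824 Entrez IDs 20727 were matched to symbols of GRCh38.p14 and 97 were not (0.147% of counts); no positions were compared across builds. Expected counts were rounded and tested over all genes with edgeR 4.0.16 in R 4.3.3 (filterByExpr, minimum count 10, minimum total 15; TMM; glmQLFit and glmQLFTest, no covariates), with calls at a p under 0.05 after Benjamini-Hochberg adjustment. SE is the log2 fold change over the square root of F. The procedure was tested on simulated data in which no library stood apart as scramble replicate 3 does, so that test does not cover this feature. Alternatives were RLE size factors, no low-count filter, the replicate number as a block, DESeq2 1.42.0 and each library left out.

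The members, gene lists and rules were chosen with earlier results of these data known. Given in full are called members, those called without scramble replicate 3 at an absolute log2 fold change of at least 0.5 and at least 1 CPM, and the most abundant of each subfamily, with others added after their values were seen; of other lists, up to 4 called genes of smallest p. Intervals and limits of counts of 0 cover counting error only. Python 3.11.15, pandas 2.3.3, numpy 2.4.6 and matplotlib 3.10.9 were used. Results of some genes are not reported here, though counts over all members and lists include them.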

Additional observations from a re-analysis of the deposited data

How the results depend on the processing

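Over all genes 873 were called higher and 835 lower, and with 1 library left out these counts ran from 460 to 3857 and from 269 to 3582. The ABC genes called higher and lower, 4 and 4, ran from 1 to 8 and from 1 to 8, the lowest without each knockdown library (ABCA8, which had to differ to be tested, and ABCC8) and the highest without scramble replicate 3. Replicates varied by an estimated 18.9% (coefficient of variation) in the fit of all 6 libraries, and by 2.97% once scramble replicate 3 was dropped, so the calls made there rest on a spread that may not cover separate cultures. The log2 fold change of C19orf12 ran from -1.08 to -0.73 with 1 library left out, and its call was lost without knockdown replicate 1, 2 or 3 (adjusted p = 0.0908, 0.0755 and 0.0879 by edgeR). Only ABCE1 among the 14 ABC genes described in full turned round and was called, at -0.22 without scramble replicate 3, with a range of -0.22 to 0.22 over the libraries left out, and the cause was not tested. By RLE size factors, with no filter on low counts and by DESeq2 the same 8 ABC genes were called. With the replicate block 917 genes were called higher and 737 lower, and 7 ABC genes were, ABCG2 being lost (adjusted p = 0.0579). Same-numbered libraries deviated together at correlations of -0.0239, -0.0181 and -0.0232 across genes, beside -0.0506 to 0.064 between differently numbered ones. No pairing was seen, but a weak one could be hidden by the distance of scramble replicate 3. Taking FPKM in place of CPM moved the log2 ratio of group means beyond the spread for 1 of these 14 genes, ABCC6, to 0.17. Depth limits ABCA8 and the 11 listed genes that did not pass the filter, which had at most 11 counts in a library.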
